A study of Mus musculus with 6 samples.

Results

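The mRNAs of 10 replication-independent histone variant genes were followed in livers of mice kept on the MCD diet, which lacks methionine and choline. The genes were taken by symbol from the 40481 genes of the deposited table: *H3f3a* and *H3f3b* (histone H3.3), *H2afz* and *H2afv* (H2A.Z), *Cenpa* (CENP-A), *H2afx* (H2A.X), *H2afj* (H2A.J), *H2afy* and *H2afy2* (macroH2A) and *H1f0* (the linker histone H1.0). All 10 passed the filter on low counts, which kept 17287 genes. Male C57BL/6 mice aged 12 to 16 weeks carried *Mttp* f/f alleles and Villin Cre ER(T2), and received tamoxifen (*Mttp-IKO*) or vehicle (littermate controls, labelled wild type) for 5 days, then the MCD diet for 3 weeks from 3 weeks after injection, and a fast of 4 h. *Mttp* encodes the microsomal triglyceride transfer protein, which loads lipid onto apolipoprotein B, and the Villin promoter drives the Cre in intestinal epithelium, so both groups kept the gene in the liver. Only the *Mttp-IKO* group received tamoxifen, so the drug and the deletion cannot be told apart in any difference between the groups, called genotypes here. RNA-Seq of ribosome-depleted liver RNA was done on 3 pools a genotype, each of RNA from 3 to 4 mice.

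Most histone proteins are made in S phase from clustered, intronless genes whose mRNAs end in a stem-loop in place of a poly(A) tail. The variants are encoded apart from those clusters, mostly by genes with introns and polyadenylated mRNAs, and are made throughout the cell cycle or, for CENP-A, after DNA replication, so a resting tissue such as the adult liver depends on them to replace lost histones. H3.3 and H2A.Z mark active chromatin, macroH2A is found in repressed chromatin, H2A.X is phosphorylated at DNA breaks, CENP-A defines the centromere and H1.0 accumulates in cells that have stopped dividing.

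The pools held 25271585 to 36238734 reads on genes, and the variants 31 to 4848 reads a pool. Liver identity was clear, with the 8 hepatocyte markers summing to 55856 to 92350 CPM (read counts relative to the reads on genes of the pool, TMM-scaled) in control and 110177 to 164529 CPM in *Mttp-IKO* pools. *Mttp* itself, which the intestinal deletion leaves in place here, ranged from 90.4 to 186 CPM in control and from 129 to 161 CPM in *Mttp-IKO* pools, so it does not check the labels. Markers of recruited macrophages summed to 315 to 933 CPM in control and 140 to 210 CPM in *Mttp-IKO* pools, and those of stellate cells to 851 to 1516 and 457 to 510 CPM, with 5 of 8 genes of each list lower at an adjusted p under 0.05 (3.09% of all genes tested were) and none at 0 reads in any pool. Without *Mttp-IKO* pool 3 these calls numbered 4 and 3, where 562 of all 17854 genes tested then were called lower. Markers of striated muscle summed to 98.5 and 766 CPM in control pools 1 and 2 and to 0.461 to 1.22 CPM in the other pools. The part of these cell types in the values given was not tested, and in bulk RNA fewer cells of a type and less RNA per cell cannot be told apart. *Mttp-IKO* pool 3 stood apart from the rest: RNAs of small-RNA genes took 0.634% of its reads against 3.60% to 5.27% in the other pools, and its short mRNAs were low, as described with the genes concerned.

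No variant passed the threshold of 0.05 on the adjusted p in the comparison of genotypes by edgeR's quasi-likelihood test, against 4.01% of all genes tested (694 of 17287), 3.09% lower and 0.92% higher in *Mttp-IKO*. At an unadjusted p under 0.05 there were 4 variants (*Cenpa*, *H1f0*, *H2afy2* and *H2afv*), where 23.0% of all genes reached that level, 1 variant (*Cenpa*) was called by DESeq2, which called 11.6% of genes, and none by limma-voom, which called 2.48%. The log2 fold change was below 0 for 8 of 10 variants, where 49.5% of all genes were below 0, and its median was -0.32 for the variants and 0.01 for all genes. In 5 of 10 the control and *Mttp-IKO* ranges were separate, where 31.0% of all genes had separate ranges: 4 were lower in *Mttp-IKO* (*Cenpa*, *H2afv*, *H2afy* and *H2afy2*; 16.5% of all genes) and 1 higher (*H1f0*; 14.5% of all genes). Without *Mttp-IKO* pool 3 there were still 8 variants below 0, with a median of -0.19, and 6 of 10 did not overlap, *H2afj* being the one added, against 45.4% of all genes. The plot of the variants by pool shows these values.

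**Figure D1:**
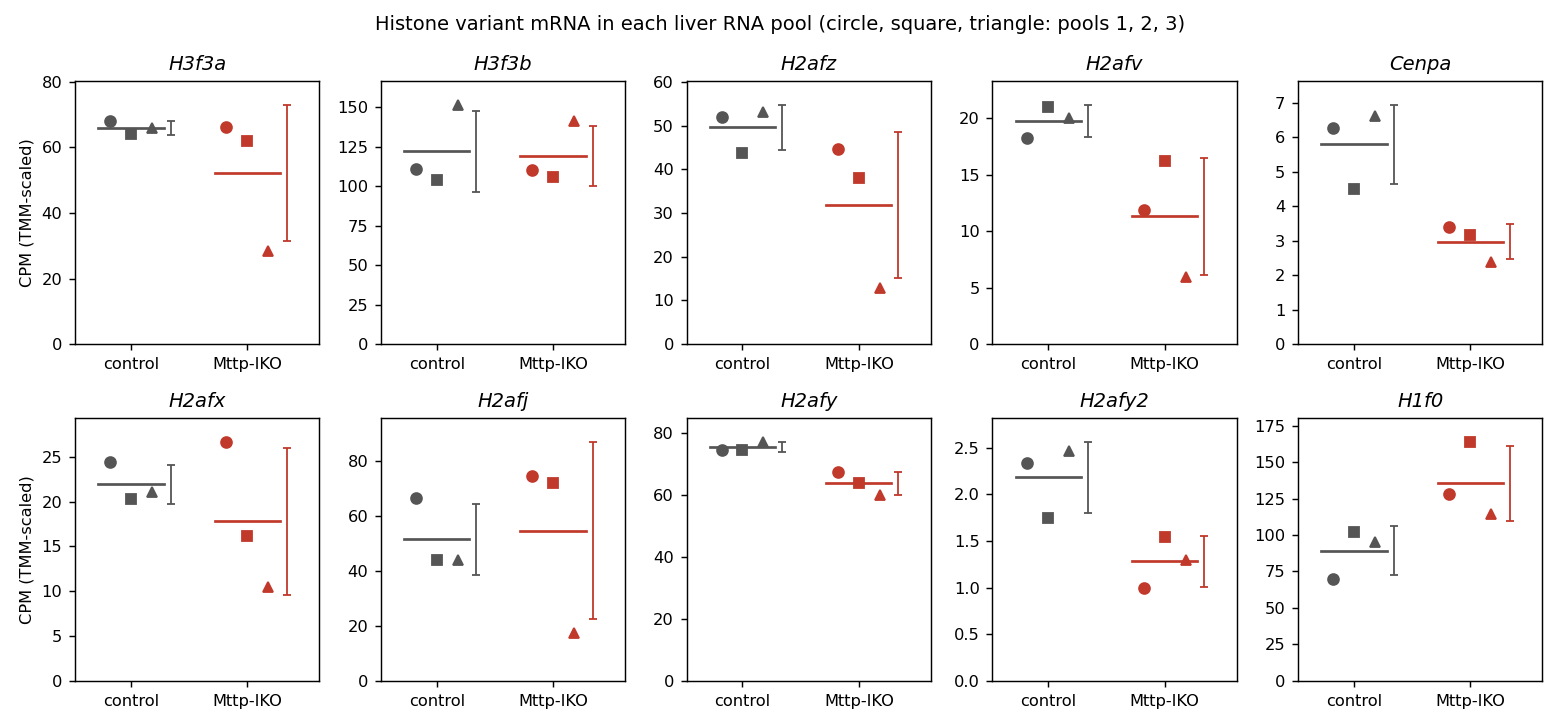
CPM scaled by TMM of the 10 histone variants in each RNA pool of control (grey) and *Mttp-IKO* (red) livers, with a line at the mean of 3 pools and a bar of 1 SD; each axis starts at 0. All 3 *Mttp-IKO* pools lie below the control pools for *Cenpa*, *H2afv*, *H2afy* and *H2afy2* and above them for *H1f0*, and pool 3 (triangle) is the lowest *Mttp-IKO* pool of 8 genes, all but *H3f3b* and *H2afy2*.

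Levels of different genes were compared per length of exon, as TMM-scaled CPM per kilobase (RPKM). In control livers *H3f3b* stood first at 41.0 ± 8.60 RPKM (SD, n = 3), followed by *H1f0* at 38.9 ± 7.33, *H2afj* at 28.2 ± 7.08 and *H2afz* at 27.9 ± 2.89 RPKM, each of these 4 overlapping its neighbour in the order. Below them came *H3f3a* at 18.8 ± 0.593, *H2afx* at 15.8 ± 1.59, *H2afv* at 12.1 ± 0.867 and *H2afy* at 11.1 ± 0.224 RPKM, of which only *H2afv* and *H2afy* overlapped each other. *Cenpa*, at 2.32 ± 0.456 RPKM, and *H2afy2*, at 1.0 ± 0.18 RPKM, were the lowest and did not overlap. The order rests on the length of all annotated exons, which for some genes far exceeds that of the principal mRNA. It also rests on uniquely aligned reads, while 69.6% of the 50-base stretches of the *H2afz* mRNA also occur in transcripts of other genes. The same holds for 30.3% in *H3f3a*, 8.40% in *H3f3b* and 0% in *H2afv*, so *H2afz* and *H3f3a* may be counted too low. Per length of the principal mRNA, *H2afz* moved from place 4 to 2 (46.4 ± 4.8 CPM per kilobase) and *H2afy* from 8 to 4 (36.9 ± 0.746). *H3f3b* stayed first (48.6 ± 10.2) and *Cenpa* and *H2afy2* last, and the first 4 again overlapped their neighbours. In *Mttp-IKO* livers *H1f0* stood first by its mean on either length, by all exons at 59.3 ± 11.2 RPKM, above *H3f3b* at 40.0 ± 6.46 RPKM. Summed over the 10 genes, the variants made up 493, 480 and 537 CPM in control pools 1 to 3 and 534, 543 and 394 CPM in *Mttp-IKO* pools 1 to 3, so the sum overlapped between genotypes and was lowest in *Mttp-IKO* pool 3.

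H3.3, H2A.Z and macroH2A are each encoded by a pair of genes, and the start of the coding sequence of each pair shows how far a read can tell the partners apart. The first 120 bases of the principal coding sequences (GENCODE, GRCm38) are given with the bases at which the partners differ in capitals.
H3f3a: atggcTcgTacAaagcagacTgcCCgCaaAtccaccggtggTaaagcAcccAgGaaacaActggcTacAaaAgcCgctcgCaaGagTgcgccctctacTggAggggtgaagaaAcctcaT
H3f3b: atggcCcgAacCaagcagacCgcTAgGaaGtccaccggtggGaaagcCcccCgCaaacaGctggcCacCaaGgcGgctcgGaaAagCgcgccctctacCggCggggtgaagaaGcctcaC
H2afz: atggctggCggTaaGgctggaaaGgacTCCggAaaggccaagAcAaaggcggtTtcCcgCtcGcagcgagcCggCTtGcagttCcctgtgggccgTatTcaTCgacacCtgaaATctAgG
H2afv: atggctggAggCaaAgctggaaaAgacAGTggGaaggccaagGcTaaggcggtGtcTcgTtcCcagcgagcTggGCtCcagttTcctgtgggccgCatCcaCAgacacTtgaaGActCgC
H2afy: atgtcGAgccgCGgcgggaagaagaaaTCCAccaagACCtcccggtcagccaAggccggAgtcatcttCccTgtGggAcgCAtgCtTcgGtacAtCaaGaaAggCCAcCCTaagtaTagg
H2afy2: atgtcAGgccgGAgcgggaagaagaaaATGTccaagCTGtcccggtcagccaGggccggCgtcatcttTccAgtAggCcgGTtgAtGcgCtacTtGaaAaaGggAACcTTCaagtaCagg
The partners *H3f3a* and *H3f3b*, which encode the same H3.3 protein, differed at 95 of 408 coding bases, 81 of them at the last base of a codon, and their longest identical run was 23 bases. *H2afz* and *H2afv* differed at 80 of 384 bases, 69 of them last codon bases, with no identical run over 14 bases. The macroH2A genes differed at 366 of 1116 bases, with no run over 16. Partners thus shared no stretch of 50 coding bases with each other, whereas transcripts of other genes did share such stretches, as given with each gene.

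Of the H3.3 genes, *H3f3a* (ENSMUSG00000060743, GRCm38 chr1:180800832-180813943, minus strand) was measured at 68, 63.9 and 65.9 CPM in control pools 1 to 3 and at 66.2, 61.9 and 28.5 CPM in *Mttp-IKO* pools 1 to 3. *Mttp-IKO* pools 1 and 2 lay within or just below the control range, and pool 3 was 2.25-fold below their mean. The log2 fold change of *Mttp-IKO* over control was -0.34 ± 0.290 (SE; edgeR adjusted p = 0.524), and -0.04 without *Mttp-IKO* pool 3 (adjusted p = 0.845). *H3f3b* (ENSMUSG00000016559, chr11:116021912-116027962, minus strand), with the higher counts of the pair, was at 111, 104 and 151 CPM in control and 110, 106 and 141 CPM in *Mttp-IKO* pools. Its means of 122 ± 25.6 and 119 ± 19.2 CPM were the closest to each other of the 10 variants in fold, pool 3 was the highest pool in both genotypes, and the log2 fold change was -0.04 ± 0.204 (edgeR adjusted p = 0.937). Of the 50-base stretches of the *H3f3a* coding sequence, 92.8% also occur in transcripts of other genes, and of *H3f3b* 46%, so the counts of *H3f3a*, made from uniquely aligned reads, are uncertain. The annotated copies *H3f3a-ps1*, *H3f3a-ps2* and *H3f3c* held at most 40 reads a pool.

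*H3f3a* exons also overlap, on the opposite strand, those of *Gm17275* over 638 bases and of *H3f3aos* over 160 bases, and whether counting used the strand is not stated. These genes held 67 to 102 and 22 to 38 reads a pool, against 679 or more for *H3f3a*. By level per length, *H3f3b* made up 65.7%, 65.8% and 73.0% of the H3.3 pair in control pools and 66.2%, 66.8% and 85.4% in *Mttp-IKO* pools. The share was higher in *Mttp-IKO* pool 3 than in any other pool, and the means of 68.2% ± 4.20 and 72.8% ± 10.9 did not differ beyond their spread (exact two-sided permutation test, p = 0.5, adjusted over 3 shares 0.75). With 3 pools against 3 this test cannot give a p under 0.1. The share rests on uniquely aligned reads, which may count *H3f3a* too low, so the level of the share is uncertain.

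Both H2A.Z genes had lower means in *Mttp-IKO* than in control livers. *H2afz* (ENSMUSG00000037894, chr3:137864487-137866922, plus strand) was at 52.0, 43.7 and 53.0 CPM in control and 44.6, 38.0 and 12.9 CPM in *Mttp-IKO* pools. *Mttp-IKO* pool 1 fell within the control range, pool 2 below it, and pool 3 was 3.19-fold below the mean of the other two. The log2 fold change was -0.64 ± 0.390 (edgeR adjusted p = 0.366), and -0.26 ± 0.136 without pool 3 (adjusted p = 0.272). All 50-base stretches of the *H2afz* coding sequence, and 69.6% of those of its whole mRNA, also occur in transcripts of 6 other genes, most of them gene models without a name, so its counts from uniquely aligned reads are uncertain.

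*H2afv* (ENSMUSG00000041126, chr11:6427229-6444443, minus strand), which shared no 50-base stretch with another gene, was at 18.2, 21 and 20 CPM in control and 11.8, 16.2 and 5.91 CPM in *Mttp-IKO* pools. Each *Mttp-IKO* pool was below every control pool, with means of 19.8 ± 1.42 and 11.3 ± 5.17 CPM. The log2 fold change was -0.80 ± 0.323 (edgeR adjusted p = 0.190), and it moved to -0.49 ± 0.171 without *Mttp-IKO* pool 3 (adjusted p = 0.132), where pools 1 and 2 still lay below the control pools. *H2afz* made up 72.4%, 65.7% and 70.9% of the pair per length in control and 77.6%, 68.3% and 66.7% in *Mttp-IKO* pools, which overlapped (exact two-sided permutation test, p = 0.8, adjusted 0.8). As *H2afz* may be counted too low from uniquely aligned reads, the level of its share is uncertain.

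The promoters of the H2A.Z pair are shown because both genes had lower means in *Mttp-IKO*, though the *H2afz* pools overlapped those of control. Both were low in *Mttp-IKO* pool 3, as were *H2afj*, *H3f3a* and *H2afx*. The 250 bases before the start of each gene (RefSeq, GRCm38.p6, in the direction of transcription) have the CCAAT box, read on either strand as CCAAT or ATTGG, in capitals.
H2afz, chr3:137864237-137864486, plus strand: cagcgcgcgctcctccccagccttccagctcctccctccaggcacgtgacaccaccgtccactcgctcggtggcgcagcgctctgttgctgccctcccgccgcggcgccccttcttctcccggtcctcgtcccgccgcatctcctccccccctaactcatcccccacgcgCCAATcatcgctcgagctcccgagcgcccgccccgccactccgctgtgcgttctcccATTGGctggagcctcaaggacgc
H2afv, chr11:6444444-6444693, minus strand: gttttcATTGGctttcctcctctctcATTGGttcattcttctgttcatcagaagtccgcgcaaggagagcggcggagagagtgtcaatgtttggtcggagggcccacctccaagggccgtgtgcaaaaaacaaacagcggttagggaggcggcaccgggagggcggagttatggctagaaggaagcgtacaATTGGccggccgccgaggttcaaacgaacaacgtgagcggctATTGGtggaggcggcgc
The box occurred 2 times upstream of *H2afz* and 4 times upstream of *H2afv*. In the windows of other variants it occurred 4 times for *H3f3b*, 3 times for *H2afj*, 2 times for *Cenpa* and 1 time for *H3f3a*. The log2 fold changes of those genes were -0.04, 0.09, -0.96 and -0.34. A link of the box to the levels was not tested. RefSeq promoters were matched for 9 of the 10 variants, all but *H2afx*, and 6 of these 9 (66.7%) held the box, where 33.8% of 32851 promoters of that length did. The promoters of both macroH2A genes and of *H1f0* held none. TATAAA, searched on both strands, occurred in 1 of 9, that of *H3f3b*, against 12.4% of all promoters. Of the elements known from cell cycle genes, TTTGAA occurred in 1 of 9 (*H2afv*; 16% of all promoters) and TTTNNCGC in 0 of 9 (4.28% of all), both strands searched. These are matches of letters only, and the windows hold nothing beyond 250 bases. The windows end at the RefSeq start. For *H3f3b*, *H3f3a*, *H2afj*, *Cenpa*, *H2afy* and *H2afy2* that start lies inside the gene span given here, so their windows lie partly or wholly within that span.

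*Cenpa* (ENSMUSG00000029177, chr5:30666777-30674827, plus strand), which encodes the histone H3 variant that marks the centromere, had the largest difference of the 10 on the log2 scale. Its counts were 253, 162 and 212 in control and 105, 92 and 57 in *Mttp-IKO* pools, or 6.27, 4.49 and 6.62 CPM and 3.38, 3.16 and 2.39 CPM. Every *Mttp-IKO* pool was below every control pool, with means of 5.80 ± 1.14 and 2.98 ± 0.520 CPM. The log2 fold change was -0.96 ± 0.252, a level 0.515 times that of control, and the edgeR adjusted p of 0.0750 missed the threshold. The call turned on the method: the adjusted p was 0.0142 by DESeq2 and 0.0463 by edgeR with scaling to total counts alone, which called 5.89% of all genes. It ranged from 0.0142 to 0.275 over the alternatives tried, with log2 fold changes of -1.14 to -0.82. *Cenpa* shared no 50-base stretch with another gene, and without *Mttp-IKO* pool 3 its log2 fold change was -0.82 ± 0.240 (adjusted p = 0.0946).

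**Figure D2:**
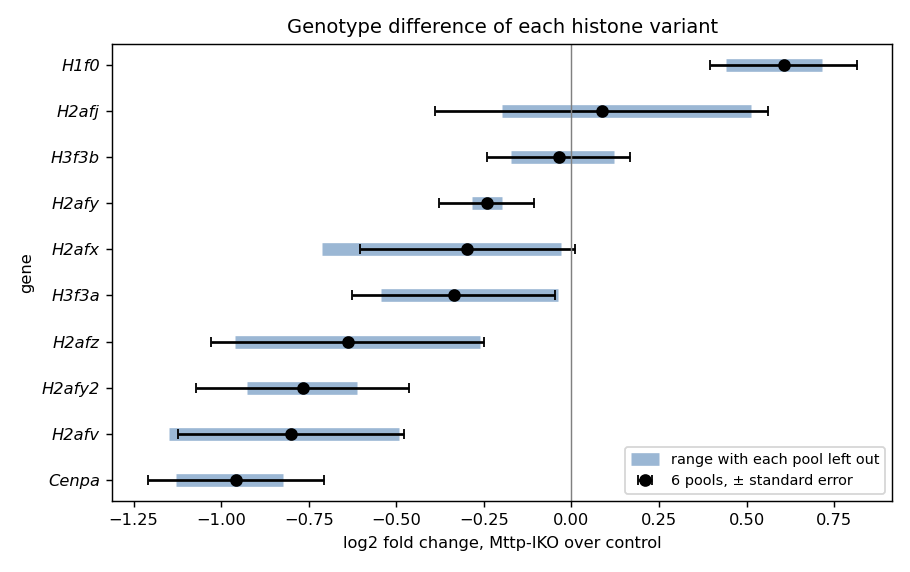
Log2 fold change of *Mttp-IKO* over control for the 10 histone variants (points, with bars of 1 standard error derived from the edgeR F statistic), and its range when each pool in turn was left out (blue). *Cenpa*, *H2afv*, *H2afy2*, *H2afz*, *H3f3a*, *H2afx* and *H2afy* stay below 0 and *H1f0* above 0 over the whole range, whereas *H2afj* and *H3f3b* cross 0.

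*H2afx* (ENSMUSG00000049932, chr9:44334694-44336077, plus strand), a single-exon gene whose product carries the phosphorylation that marks broken DNA, was at 24.4, 20.3 and 21.1 CPM in control and 26.7, 16.2 and 10.5 CPM in *Mttp-IKO* pools. The *Mttp-IKO* pools ran from above to below the control range, and the log2 fold change was -0.30 ± 0.307 (edgeR adjusted p = 0.599) with all pools and -0.03 ± 0.218 without pool 3 (adjusted p = 0.946). *H2afx* was also the one variant whose mRNA held the letters of the histone stem-loop, the 3' end signal of the S phase histones. They are printed beside those of 2 abundant replication-dependent genes, with the CTTTT common to all of them in capitals.
H2afx: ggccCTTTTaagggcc
Hist1h4d: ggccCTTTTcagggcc
Hist1h1c: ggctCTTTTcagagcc
In *H2afx* the 16 bases began at base 547 of a 1384-base mRNA, with 822 bases after them. The annotated transcripts of the 2 other genes also ran on, by 770 bases in *Hist1h4d* and 840 bases in *Hist1h1c*. The pattern searched, on the sense strand, was GG, any 2 bases, CTTTT, any base, AG, any 2 bases and CC. It occurred in 43 of 67 annotated replication-dependent histone genes (64.2%), in 1 of the 10 variants and in 0.161% of 55450 genes.

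*H2afj* (ENSMUSG00000060032, chr6:136808244-136810070, plus strand), which encodes an H2A close to the S phase form, was at 66.5, 44.1 and 44.0 CPM in control and 74.5, 72.1 and 17.4 CPM in *Mttp-IKO* pools. *Mttp-IKO* pools 1 and 2 were above every control pool and pool 3 below every control pool, so the pools of one genotype stood on both sides of the other. Pool 3 was 4.19-fold below the mean of pools 1 and 2, the largest such gap among the variants. The log2 fold change of 0.09 ± 0.475 (edgeR adjusted p = 0.934) became 0.51 ± 0.196 without pool 3 (adjusted p = 0.160), and its sign turned under 4 other settings and with 4 of the other pools left out. Of the coding 50-base stretches of *H2afj* 37.3%, and of *H2afx* 33.9%, occur in other genes' transcripts, those of the replication-dependent *Hist1h2a* genes and of each other among them.

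The macroH2A genes encode H2A with a large globular domain attached. *H2afy* (ENSMUSG00000015937, chr13:56073619-56136361, minus strand) was at 74.6, 74.6 and 77.2 CPM in control and 67.4, 64.0 and 60.0 CPM in *Mttp-IKO* pools, the tightest values among the variants. All *Mttp-IKO* pools were below the control pools, but the difference was small, with a log2 fold change of -0.24 ± 0.134 (edgeR adjusted p = 0.320) and of -0.20 ± 0.102 without *Mttp-IKO* pool 3. *H2afy2* (ENSMUSG00000020086, chr10:61738665-61784147, minus strand), the scarcer partner, had 94, 63 and 79 reads in control and 31, 45 and 31 in *Mttp-IKO* pools, or 2.33, 1.75 and 2.47 CPM and 0.999, 1.54 and 1.30 CPM. Its pools did not overlap either, the log2 fold change was -0.77 ± 0.304 (edgeR adjusted p = 0.185), and it was -0.78 ± 0.326 without pool 3. Its exons share 233 bases, 10.7% of their length, with *Aifm2* on the opposite strand, which held 1162 to 2446 reads a pool, so reads of that stretch cannot be assigned with certainty. *H2afy* made up 91.1%, 93.2% and 90.9% of the pair in control and 95.6%, 93.0% and 93.6% in *Mttp-IKO* pools, which overlapped (91.7% ± 1.26 against 94.1% ± 1.34, exact two-sided permutation test, p = 0.2, adjusted 0.6). The difference of 2.34 percentage points in this share depended on the length used, being 0.779 with the principal mRNA length and 0.826 on raw counts.

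**Figure D3:**
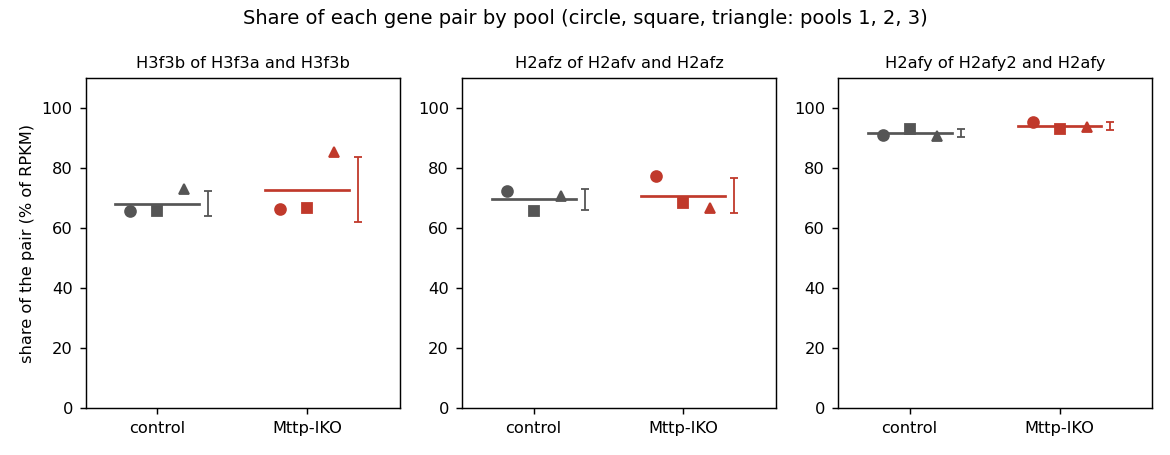
Share of the first-named gene in its pair, as percent of the summed RPKM of both genes, in each control (grey) and *Mttp-IKO* (red) pool, with a line at the mean of 3 pools and a bar of 1 SD. The shares of *H3f3b*, *H2afz* and *H2afy* overlap between genotypes, and *H3f3b* reaches 85.4% in *Mttp-IKO* pool 3 against 65.7% to 73.0% in the other pools.

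*H1f0* (ENSMUSG00000096210, chr15:79028212-79030498, plus strand), the linker histone of resting and differentiated cells, was the one variant with every *Mttp-IKO* pool above every control pool. It was at 70.1, 102 and 94.9 CPM in control and 128, 164 and 114 CPM in *Mttp-IKO* pools. The level in *Mttp-IKO* was 1.52 times that of control (log2 fold change 0.61 ± 0.209), and the edgeR adjusted p of 0.140 did not reach the threshold. Over the alternatives tried the log2 fold change of *H1f0* ran from 0.43 to 0.72 and the adjusted p from 0.0618 to 0.427. Without *Mttp-IKO* pool 3 it was 0.72 ± 0.191 (adjusted p = 0.0788). None of the coding 50-base stretches of *H1f0* occurred in another gene, but 5.68% of those of its whole mRNA did.

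Over all coding genes the values of *Mttp-IKO* pool 3 were lower the shorter the mRNA. Of the variants, 5 lay below the lower quartile of their length class, *H3f3a* when placed by its longest transcript. Against the mean of *Mttp-IKO* pools 1 and 2, the median log2 ratio of pool 3 was -1.07 over 872 protein-coding genes with a principal mRNA of 300 to 1000 nt, -0.56 from 1000 to 1500 nt, -0.27 from 1500 to 2000 nt and -0.07 from 2000 to 3000 nt, and 0.28 for mRNAs of 5000 nt or more. Control pool 3 against control pools 1 and 2 gave medians of at most 0.03 in any length class. Among the variants the log2 ratio was -2.07 for *H2afj* (1831 nt), -1.67 for *H2afz* (1069 nt), -1.23 for *H2afv* (1633 nt), -1.17 for *H3f3a* (724 to 2841 nt, by transcript) and -1.02 for *H2afx* (1384 nt), all below the lower quartile of their length class when *H3f3a* is placed by its longest transcript. It was -0.44 for *Cenpa* (1466 nt), -0.35 for *H1f0* (2055 nt), -0.13 for *H2afy* (2046 nt), 0.03 for *H2afy2* (2175 nt) and 0.38 for *H3f3b* (1993 to 2514 nt). The part of mRNA length in the genotype difference was not tested gene by gene. With a trend on the length of the principal transcript removed from all pools the log2 fold changes were -0.85 for *Cenpa* (adjusted p = 0.0694), 0.66 for *H1f0* (edgeR adjusted p = 0.0807), -0.74 for *H2afv* and -0.57 for *H2afz*. No variant was called then.

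**Figure D4:**
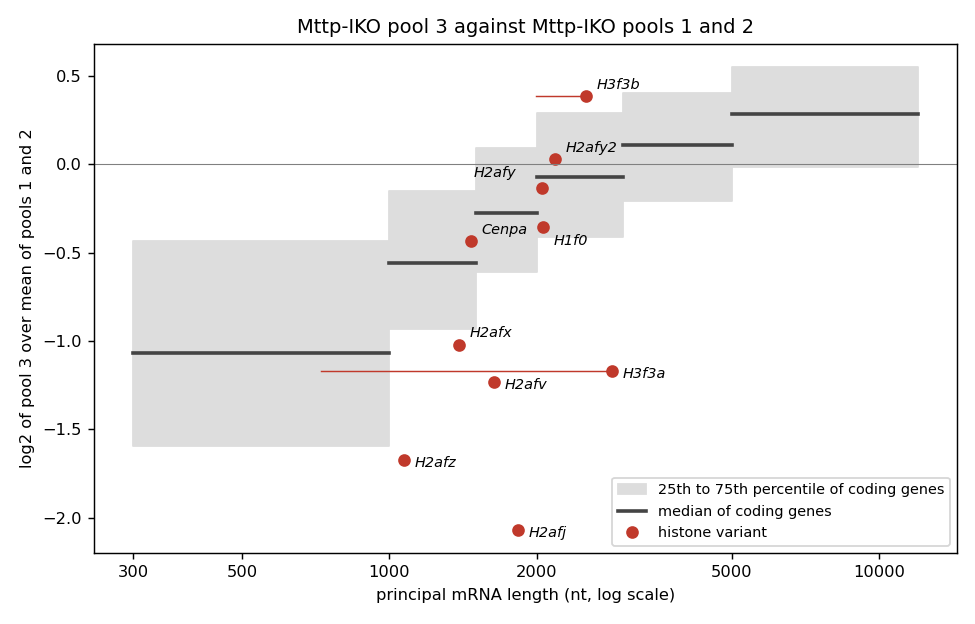
Log2 ratio of *Mttp-IKO* pool 3 to the mean of *Mttp-IKO* pools 1 and 2 against the length of the principal mRNA in nt (log scale): medians (dark lines) and 25th to 75th percentiles (grey) of protein-coding genes by length class, the longest class having no upper limit, and the 10 histone variants (red), with a thin line where principal transcripts differ in length. The class medians run from -1.07 for the shortest to 0.28 for the longest mRNAs, and *H2afj*, *H2afz*, *H2afv*, *H3f3a* and *H2afx* lie at -1.02 or lower.

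The enzymes and chaperones that place these variants were read from 5 lists: 1 of 52 tested genes passed, where 4.01% of all genes did, 23 were below 0 and 29 above, and the median log2 fold change was 0.01. Of 8 genes for H3.3 deposition none passed, 3 were lower and 5 higher. The 2 with the smallest p were *Asf1b*, a chaperone of H3 and H4 that is made in dividing cells, at a log2 fold change of -2.05 (edgeR adjusted p = 0.0725), and *Ubn1*, a subunit of the HIRA complex, at 0.43 (adjusted p = 0.189). Of 12 genes of H2A.Z exchange none passed, with 6 on either side of 0, *Ep400*, an ATPase that inserts H2A.Z, at 0.36 (adjusted p = 0.280) and *Anp32e*, which removes it, at -0.38 (adjusted p = 0.340).

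Of the 11 tested genes for CENP-A loading and the centromere, 8 were lower and 3 higher, with a median of -0.58, and *Cenpi*, a protein of the inner kinetochore, was the one that passed. *Cenpi* had 45, 30 and 23 reads in control and 2 in each *Mttp-IKO* pool, and fell by 3.57 on the log2 scale (SE 0.484, edgeR adjusted p = 0.0181), a call resting on few reads. With each pool left out its adjusted p ran from 0.0200 to 0.0998, and the call was lost without control pool 1, control pool 3, *Mttp-IKO* pool 1 or *Mttp-IKO* pool 2. *Hjurp*, the chaperone that carries CENP-A to the centromere, named here after its values were seen, was at 143 to 177 CPM in control and 166 to 190 CPM in *Mttp-IKO* pools, which overlapped. Of 12 genes that phosphorylate or read H2A.X none passed, 4 lower and 8 higher, with the kinases *Atr* at 0.39 (edgeR adjusted p = 0.209) and *Atm* at -0.20 (adjusted p = 0.488). Of 9 general histone chaperones none passed, 2 lower and 7 higher, with *Chaf1a*, the large subunit of the replication-coupled CAF-1 complex, at -1.04 (edgeR adjusted p = 0.104) and *Supt6*, which rebuilds nucleosomes behind RNA polymerase, at 0.23 (adjusted p = 0.375). Without *Mttp-IKO* pool 3 the 5 lists again held 1 call, where 864 of all 17854 genes tested then were called. A list of 12 further genes held variants, mostly of the testis, and the pseudogenes *H3f3c* and *H2afy3*. Of these genes only *H1fx*, a linker histone, passed the filter, at 73, 24 and 51 reads in control and 20, 13 and 3 in the *Mttp-IKO* pools (log2 fold change -1.70, edgeR adjusted p = 0.145).

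The replication-dependent histones were set beside the variants. Of 64 genes, 50 passed the filter, 49 of them with a log2 fold change below 0, where 49.5% of all genes were below 0. Their median was -1.56 against -0.32 for the variants. At the threshold 3 of 50 passed, all lower, where 3.09% of all genes passed as lower: *Hist1h3b* (fell by 2.94, edgeR adjusted p = 0.0241), *Hist1h3d* (fell by 2.29, adjusted p = 0.0476) and the pseudogene *Hist3h2bb-ps* (adjusted p = 0.0486), named here after their values were seen. *Hist1h3d* is also among the genes the study picked from these libraries. So is *Hist1h1a*, named here for that reason, which missed the threshold used here (log2 fold change -1.88, edgeR adjusted p = 0.0890). The 3 with the highest mean CPM had smaller differences, *Hist1h4d* being at 140, 120 and 140 CPM in control and 106, 133 and 21.6 CPM in the *Mttp-IKO* pools (a log2 fold change of -0.62, edgeR adjusted p = 0.520), *Hist1h1c* at -0.06 (adjusted p = 0.911) and *Hist1h2bc* at -0.81 (adjusted p = 0.153). Many of these genes are near-identical copies, so the counts of single members are uncertain. Their sum was 1003, 762 and 999 CPM in control and 684, 722 and 247 CPM in *Mttp-IKO* pools, lower in each *Mttp-IKO* pool than in any control pool. The summed variants came to 0.492, 0.630 and 0.537 times that sum in control and 0.782, 0.752 and 1.60 times in *Mttp-IKO* pools, which did not overlap. Most replication-dependent histones have under 1000 bases of exon. Coding mRNAs of 300 to 1000 nt had a median log2 ratio of -1.07 in *Mttp-IKO* pool 3 against *Mttp-IKO* pools 1 and 2. The part of mRNA length in these sums and medians was not tested. Without *Mttp-IKO* pool 3, 46 of 51 tested genes were below 0, with a median of -1.14. At the threshold 3 passed then, all lower, where 562 of all 17854 genes tested passed as lower. Of these 3, 1 (*Hist1h3b*) was among those named. In all, with 1 pool left out at a time, *Hist1h3b* passed 2 of 6 times (adjusted p = 0.0159 to 0.117), *Hist1h3d* 1 of 6 (0.0404 to 0.18) and *Hist3h2bb-ps* 0 of 6 (0.0647 to 0.193). Of the whole list 0 passed without control pool 1, control pool 3, *Mttp-IKO* pool 1 or *Mttp-IKO* pool 2 and 8 without control pool 2.

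*Cenpa* is transcribed mainly in dividing cells, and the 20 tested genes of a cell division list all stood lower in *Mttp-IKO*, where 49.5% of all genes did. Their median log2 fold change was -1.55. The kinase *Aurkb*, which the study also picked from these libraries, was the one to pass (fell by 2.16, edgeR adjusted p = 0.0443). With each pool left out its adjusted p was 0.0264 to 0.176, past the threshold only without control pool 2. *Kif23*, named here because the study picked it too, missed the threshold used here (log2 fold change -2.00, edgeR adjusted p = 0.0568). The study listed genes by the size of the log fold change, an unlike criterion. It also measured *Kif23*, *Aurkb*, *Hist1h1a* and *Hist1h3d* by quantitative PCR. By level, 16 of the 20 were lower with no overlap between genotypes, where 16.5% of all genes were. The list summed to 95.7, 43.2 and 67.8 CPM in control and 34.5, 20.2 and 19.7 CPM in *Mttp-IKO* pools. *Cenpa* came to 6.56%, 10.4% and 9.76% of that sum in control and 9.81%, 15.6% and 12.1% in *Mttp-IKO* pools, shares that overlapped. Whether the part of dividing cells in the liver accounts for the difference in *Cenpa* was not tested. The plot of summed CPM by pool shows them.

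**Figure D5:**
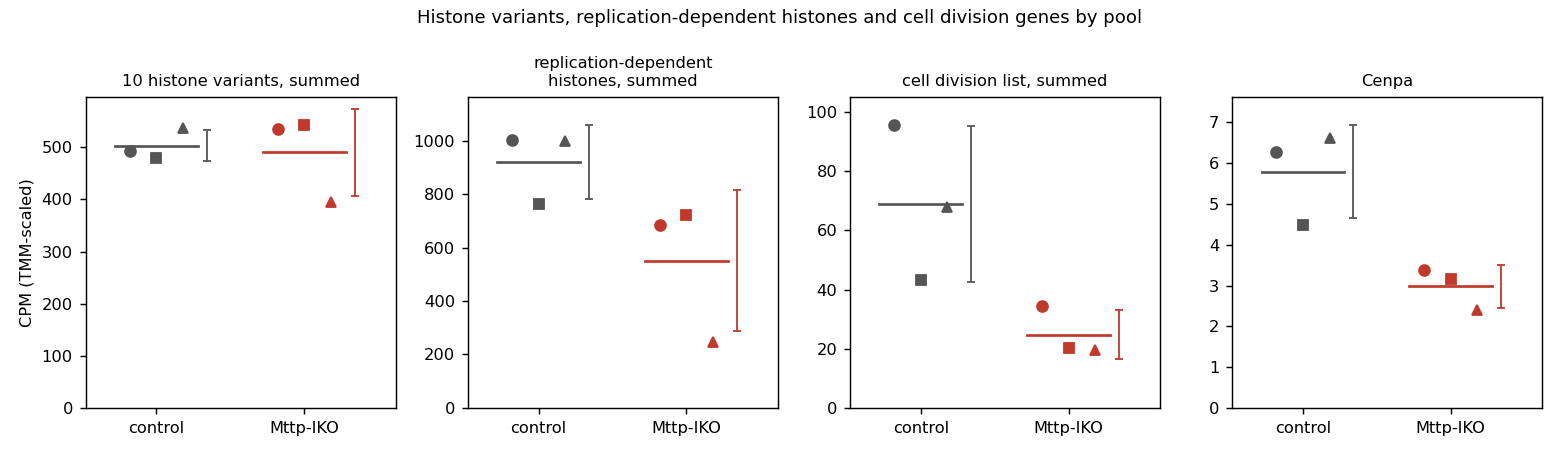
TMM-scaled CPM in each control (grey) and *Mttp-IKO* (red) pool, summed over the 10 histone variants, the replication-dependent histones and the cell division list, and for *Cenpa* alone, with a line at the mean of 3 pools and a bar of 1 SD; each axis starts at 0. The variant sum overlaps between genotypes (480 to 537 and 394 to 543 CPM), and the other 3 do not.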

How the data were processed

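Liver RNA of 3 control and 3 *Mttp-IKO* pools was analysed. The authors aligned reads with STAR 2.5.1a to the Ensembl release 76 assembly (GRCm38) and deposited, for each pool, featureCounts 1.4.6-p5 read counts of 41388 genes from uniquely aligned, unambiguous reads, without normalization. The authors also gave CPM and RPKM, which follow from the counts in all 6 files and were not tested. A deposited table with gene symbols holds 40481 of the genes, with equal counts, and 276 lines that repeat others were left out. Whether counting used the strand, and the read length, are not given in the sources used here. Reads that fit several genes were not counted.

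Genes were kept by filterByExpr (minimum count 10, minimum total 15). Counts were scaled by TMM (factors 0.898 to 1.11) and compared by glmQLFit and glmQLFTest of edgeR 4.0.16 (R 4.3.3) and p-values of the 17287 genes tested were adjusted by Benjamini-Hochberg (threshold 0.05). The sources used here name no test for these counts. Fold changes are *Mttp-IKO* over control. The SE of a log2 fold change was derived as its absolute value divided by the square root of the edgeR F statistic. The exact permutation test served for shares of gene pairs. Alternatives were DESeq2 1.42.0, limma-voom (limma 3.58.1), other scalings, no filter, coding genes only, removal of a length trend (loess, span 0.3), a replicate block and leaving out each pool. Removal of the principal transcript trend, the count of pools that do not overlap without *Mttp-IKO* pool 3, and levels per principal mRNA length were added after seeing the data. A count of 0 allows up to 3 reads, 0.0828 to 0.119 CPM, for counting error only. No pools were alike within sampling noise. A replicate is a pool of mice, so p-values measure the spread between pools, which understates that between mice.

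The 10 variants and all lists were chosen with earlier results of these data known. All 10 variants are named, and from each list of chaperones, centromere, H2A.X and cell division genes those with an adjusted p under 0.05 or, with none, the 2 with the smallest p. Of replication-dependent histones the 3 with the highest mean are named. Figures were drawn with matplotlib 3.10.9.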

Additional observations from a re-analysis of the deposited data

How the results depend on the processing

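The number of variants past the threshold was 0 with edgeR and became 1, *Cenpa*, by DESeq2 and with scaling to total counts alone; it was 0 under the other settings, among them each pool left out in turn. Over all genes, 694 passed; 1995 did by DESeq2 and 428 by limma-voom, and with 1 pool left out 0 to 892 did, 0 without *Mttp-IKO* pool 2, 21 without control pool 3, 24 without control pool 1 and 55 without *Mttp-IKO* pool 1. Of the replication-dependent histones 3 passed; 7 did with total counts, 12 without the filter, 23 by DESeq2, 1 by limma-voom and 0 to 8 with 1 pool left out, 0 without control pool 1, control pool 3, *Mttp-IKO* pool 1 or *Mttp-IKO* pool 2 and 8 without control pool 2. Of the genes that place the variants 1 passed; 3 did by DESeq2 and 0 to 2 with 1 pool left out, 0 without the same 4 pools and 2 without control pool 2. *H2afj* turned its sign with total counts (log2 fold change -0.10) and limma-voom (-0.15), and ran from -0.20 to 0.51 with 1 pool left out. *H3f3b* turned with the length trend removed (0.015) and ran from -0.17 to 0.12. The mean difference in the *H3f3b* share, 4.64 percentage points, ran from -1.64 without *Mttp-IKO* pool 3 to 7.92 without *Mttp-IKO* pool 1, and that in the *H2afz* share, 1.20, ran from -2.17 without *Mttp-IKO* pool 1 to 3.29 without *Mttp-IKO* pool 3 and was -0.80 without control pool 2. That in the *H2afy* share, 2.34, ran from 1.59 to 3.07 with 1 pool left out. The cause was not tested.

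Replicate numbers are shared between genotypes, but same-numbered pools did not deviate together in every case (correlations 0.14, 0.11 and 0.01), and the numbers are not stated to pair the pools. Not every pool correlated best with its own number, since *Mttp-IKO* pool 3 did so with control pool 2 (0.02). With a replicate block 592 genes passed in all, 0 variants, 9 replication-dependent histones and 1 of the genes that place the variants, and with the block and the length trend removed 825, 0, 12 and 1. *H2afj* was at -0.13 with the block and -0.035 with block and length trend, and *H3f3b* at 0.017 with both.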
